A study of Homo sapiens with 4 samples.

Results

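The data described here are the open chromatin regions at 10 genes of the epidermal growth factor (EGF) receptor family: the receptors EGFR, ERBB2 and ERBB3 and the ligand genes TGFA, HBEGF, AREG, EREG, EPGN, BTC and NRG1. A region belonged to a gene when its summit, the base with most reads, lay in the gene body or within 50 kb of an annotated transcription start of that gene. This gave 129 of 101142 CTR peaks and 151 of 109486 p63 peaks, of which 82 of 56680 and 98 of 62343 reached the threshold used throughout, a −log10 q of 10 or more, where q is the peak caller's false discovery rate. Open chromatin was mapped by ATAC-seq, where a transposase inserts sequencing tags into accessible DNA. The cells were BJ, a human fibroblast line in established use, which also carried rtTA, the doxycycline-dependent activator. The CTR cells expressed KLF4 alone and the p63 cells expressed ΔNp63α together with KLF4, joined by a self-cleaving peptide, from doxycycline-inducible retroviral constructs. Both groups thus carried KLF4 and were induced for 72 h. Per the study's methods the lines were polyclonal and stable, and each replicate was a new induction of the same lines. Each group had 2 samples, but the authors deposited 1 peak list per group, so that no value per sample exists in the lists and no spread between replicates and no test between the groups could be given. All differences below are differences between these 2 lists.

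The receptors of this family belong to the class of receptor tyrosine kinases at the cell surface and pair when a ligand binds. EGFR binds TGFA, AREG, EREG, HBEGF, BTC and EPGN, ERBB3 binds the neuregulins such as NRG1, and ERBB2 has no known ligand of its own but is the preferred partner of the others. The ligands are made as membrane-anchored precursors that proteases release, and in the epidermis, keratinocytes both make and answer them in an autocrine loop that maintains proliferation and supports wound closure. ΔNp63α is the p63 isoform of basal keratinocytes, and KLF4 is a zinc finger factor of the upper epidermal layers.

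The lists were those of fibroblasts by their markers. Of 10 fibroblast genes, 8 had a region at the threshold within 1 kb of the canonical start in either list, whereas 2 of 10 keratinocyte genes (DSP and PERP) and 2 of 5 melanocyte genes (MITF and PMEL) had one in either list. The 5 endothelial genes had none, and of 5 leukocyte genes CD14 had one in the CTR list. The defining keratinocyte genes KRT5 and KRT14 had no such region in either list, and neither did the fibroblast collagen genes COL1A1 and COL3A1. The background coverage was 1.18 reads (CTR) and 1.13 (p63), so that the lists were of like depth by this measure. Among regions at the threshold the median summit held 33 reads and the lowest 15 in both lists. The threshold itself bounds these summit counts, so they do not show depth.

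A region was called shared when it overlapped a region of the other list at the threshold by at least 1 bp, and CTR-only or p63-only when it did not. Some list-only regions lay over a weaker peak of the other list, and the rest, without any overlapping peak there however weak, are called absent from it. Reads at the summit are given with exact Poisson 95% intervals, and shares with Wilson 95% intervals. Both cover counting error only, since reads without molecular identifiers are not independent molecules and a summit is the maximum of its region.

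The ligand genes TGFA and BTC had no region at the threshold in the CTR list. Sequences at TGFA, AREG and EGFR are given before the values because p63-only regions there held a p63 site. This is the p53/p63 family binding site, of 20 bp, in which a pair of ten-letter parts each have a fixed C and G (NNNCNNGNNNNNNCNNGNNN) and a site was counted when no more than 3 of the other 16 positions deviated. The first positions of each part were required to be A or G, the letters between C and G to be A or T, and the last positions to be C or T. A site had to lie within 100 bp of the summit. The p63-only regions outside NRG1 that held such a site are written out around their summits, on the plus strand of GRCh38, with the site in capitals. In the TGFA region the capitals before the site mark a TEAD match (AGGAATGC) and a KLF match (GGGCGGGGC), and in the EGFR region the capitals after the site mark an AP-1 match (TGAGTCA).
TGFA, chr2:70570175-70570315: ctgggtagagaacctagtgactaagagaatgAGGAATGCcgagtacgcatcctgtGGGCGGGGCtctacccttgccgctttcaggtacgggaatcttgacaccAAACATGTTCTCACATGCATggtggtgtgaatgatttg
AREG, chr4:74490889-74491053: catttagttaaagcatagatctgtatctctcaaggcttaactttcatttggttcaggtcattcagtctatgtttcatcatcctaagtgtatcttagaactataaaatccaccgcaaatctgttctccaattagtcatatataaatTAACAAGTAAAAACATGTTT
EGFR, chr7:55109489-55109629: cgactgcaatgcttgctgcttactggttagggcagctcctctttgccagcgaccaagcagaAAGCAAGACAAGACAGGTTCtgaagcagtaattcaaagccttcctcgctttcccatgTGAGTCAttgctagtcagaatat

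The match of each site to the pattern is shown next, with matching letters in capitals and mismatches in lower case. The middle of the TGFA site lay 42 bp after the summit and that of the AREG site 84 bp after it, and the EGFR site lay over the summit itself. The site listed under ERBB2 had 2 mismatches, which was fewer than in these 3 regions. It came from a p63 peak below the threshold, with a −log10 q of 6.3 and a fold enrichment of 3.73, without any CTR peak. That peak lay between genes, 50188 bp after the canonical ERBB2 start, and a start of GRB7 was nearer, at 6980 bp. The last site lay in the promoter of TGFA, on its minus strand, 37 bp before the RefSeq start, and is shown because the region over this promoter was p63-only.

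TGFA, chr2:70570278-70570297: AAACATGTTCtcACATGCaT
AREG, chr4:74491034-74491053: tAACAAGTaaAAACATGTTT
EGFR, chr7:55109550-55109569: AAGCAAGaCaAGACAgGTTC
ERBB2, chr17:39750179-39750198: GAcCAgGTCTGGGCATGTTC
TGFA promoter, chr2:70553863-70553882: GGGCAgGCCCtGcCTAGTCT

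Over the 10 genes together, p63-only regions were more numerous than CTR-only regions, but their share was close to that in the whole list. In the p63 list, 30 of the 98 regions were p63-only (30.6%, interval 22.4 to 40.3%), against 23.9% of all p63 regions, and 16 were absent from the CTR list (16.3%, interval 10.3 to 24.9%), against 12.0%. In the CTR list, 13 of the 82 regions were CTR-only (15.9%, interval 9.51 to 25.3%), against 16.5% of all CTR regions, and 3 were absent from the p63 list (3.66%), against 3.29%. Each of these intervals contains the share over all regions. The other 69 CTR regions (84.1%) and 68 p63 regions (69.4%) were shared. By gene, 9 of the 10 had at least 1 p63-only region, against 58.2% of 20033 protein-coding genes, and 7 of 10 had at least 1 CTR-only region, against 41.9%. The windows of these genes differed in length from 101 kb at EPGN to 1270 kb at NRG1, and a longer window can hold more regions of either kind. More p63-only than CTR-only regions were found at 6 genes, which were EGFR, TGFA, HBEGF, AREG, BTC and NRG1, against 42.0% of protein-coding genes. More CTR-only regions were found at ERBB2, ERBB3 and EREG, against 19.0% of protein-coding genes, and EPGN had neither kind.

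**Figure D1:**
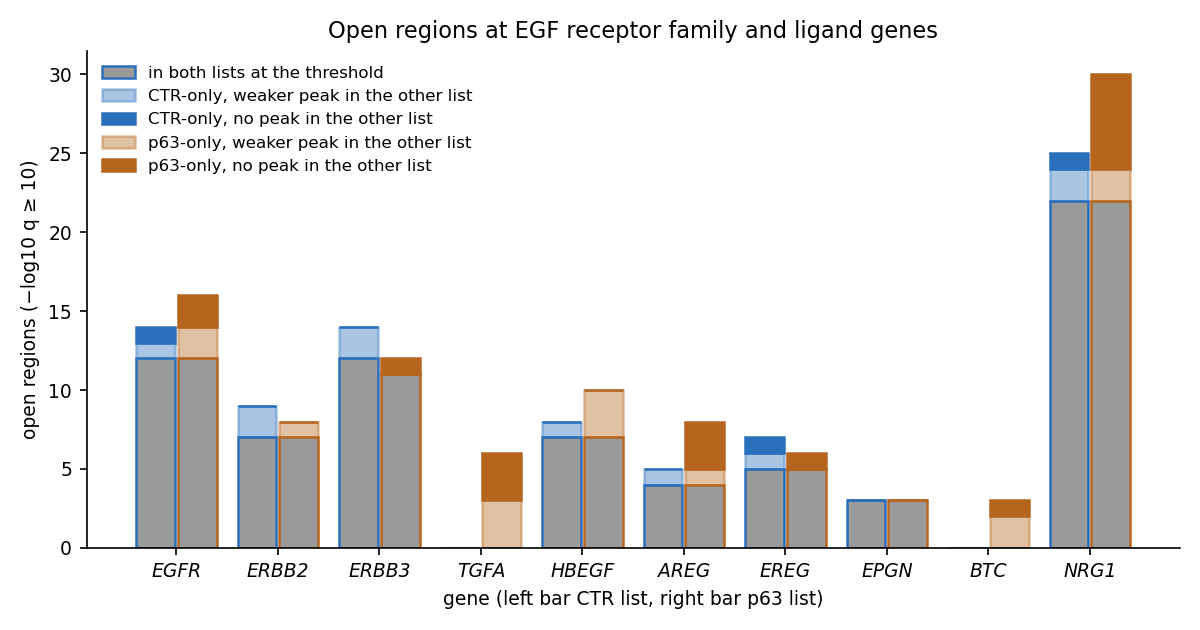
Number of open regions at the threshold (vertical axis) at each of the 10 genes, in the CTR list (left bar) and the p63 list (right bar). Grey parts are shared regions, pale parts list-only regions over a weaker peak of the other list, and dark parts regions absent from the other list; TGFA and BTC have a bar in the p63 list alone, and NRG1 has the most regions in both lists, 25 and 30.

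Among the receptors, the regions nearest to the canonical starts were open in both lists. EGFR (ENSG00000146648.21, chr7:55019017-55211628, plus strand), the receptor for most of these ligands, had 14 CTR and 16 p63 regions, of which 12 in each list were shared. The region at its start held 50 reads at the summit in CTR and 48 in p63. The region with most reads of all 10 genes lay in an EGFR intron, chr7:55132684-55134184 in the CTR list, with 143 reads (interval 121 to 168) there and 159 (interval 135 to 186) in the p63 list. Its local background was also high, at 15.7 and 16.1 reads, so that its fold enrichment was 8.63 and 9.38. Both lists thus showed the EGFR locus as widely open.

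EGFR had 4 p63-only and 2 CTR-only regions. The intronic region shown above by sequence, chr7:55109355-55109869, lay 90542 bp after the canonical start, and 164 bp from an annotated start of another EGFR transcript, and had a fold enrichment over the local background of 10.7 in the p63 list, with 28 reads at the summit (interval 18.6 to 40.5), whereas the CTR peak there held 9 reads (interval 4.12 to 17.1) and was below the threshold. These intervals did not overlap. A second intronic region, chr7:55140682-55141007, held 23 reads against 9, with intervals that overlapped. The other 2 were absent from the CTR list. Of these, chr7:55043694-55044063, in an exon of a non-canonical EGFR transcript, was at the lowest count of the list, with 15 reads, and chr7:55250449-55250656, beyond the end of the gene, held 36 reads over a local background of 6.66 reads, which left a fold enrichment of 4.83. The CTR-only regions held 16 reads each. The one in an intron, chr7:55160655-55160809, was absent from the p63 list, and the one at chr7:55245382-55245708 overlapped a p63 peak of 12 reads.

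ERBB2 (ENSG00000141736.14, chr17:39687914-39730426, plus strand), the ligandless partner, had 9 CTR and 8 p63 regions, of which 7 in each list were shared. The region at its canonical start held 47 reads in CTR and 44 in p63. Its region of highest −log10 q, at the start of longer ERBB2 transcripts and of the neighbouring gene PGAP3, held 82 and 88 reads. The p63-only region at chr17:39741417-39741769 had the highest summit of all list-only regions, with 56 reads (interval 42.3 to 72.7) against 15 (interval 8.40 to 24.7) in the CTR list, but lay in an intron of GRB7, whose start is nearer than that of ERBB2. GRB7 encodes an adaptor protein that binds activated ERBB receptors. The best site near its summit had 4 mismatches. Both CTR-only regions lay in introns of STARD3, a lipid transfer gene, and held 20 and 21 reads against 14 and 10.

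ERBB3 (ENSG00000065361.17, chr12:56076799-56103505, plus strand), the neuregulin receptor, had 14 CTR and 12 p63 regions, of which 12 and 11 were shared. At its start the summits held 80 and 83 reads. The p63-only region, chr12:56110501-56110914, had a fold enrichment of 10.9 and 28 reads, was absent from the CTR list and lay in an exon of a non-canonical transcript of PA2G4, 200 bp from an alternative start of this gene, which encodes an ERBB3-binding protein. The shared region at chr12:56103997-56105228, nearest to PA2G4 as well, held 102 reads in CTR and 117 in p63. The CTR-only regions, chr12:56029698-56029941 in an intron of IKZF4 and chr12:56060020-56060249 between genes, held 19 and 28 reads against 15 and 20. At the receptors, then, the list-only regions over weaker peaks mostly differed by less than their counting intervals, with the EGFR intron and the GRB7 intron as the exceptions.

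Among the ligands, TGFA (ENSG00000163235.16, chr2:70447284-70554193, minus strand) had regions at the threshold in the p63 list alone. It encodes transforming growth factor α, a ligand that keratinocytes make and that binds EGFR alone. No CTR peak at TGFA reached the threshold, while 6 p63 regions did. Of 20033 protein-coding genes, 4 (0.02%) had no CTR region and at least 6 p63 regions, a comparison that was chosen after the values were seen. Whatever their CTR regions, 1.32% had at least as many p63-only regions and 3.79% at least as many that were absent from the CTR list. None of these shares allows for the length of the window, which is 188 kb at TGFA. The CTR list did hold 5 weaker TGFA peaks, with 10, 14, 14, 11 and 15 reads at the summit and a −log10 q of 5.19 to 9.78, so that the locus was not without signal in CTR.

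The TGFA region of highest −log10 q in the p63 list, chr2:70569688-70570537, lay between genes at −16419 bp from the start (negative distances lie before it). It had a fold enrichment of 13.3, a −log10 q of 34.4 and 40 reads (interval 28.6 to 54.5), and no CTR peak overlapped it. The lowest summit at a like local background in the CTR list held 7 reads, so fewer reads than that could have passed unlisted. This is the region with the p63 site and the KLF and TEAD matches shown above. A second region absent from the CTR list, chr2:70596244-70597035, lay further out at −42731 bp and held 26 reads, with a fold enrichment of 11.2, and the third, chr2:70455051-70455479, lay in an intron and held 22 reads, with a best site of 4 mismatches.

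At the TGFA promoter, chr2:70553480-70554356, the p63 list held 27 reads (interval 17.8 to 39.3) and the CTR list 15 (interval 8.40 to 24.7). The intervals overlapped, and the −log10 q of 18.8 and 9.78 lay on either side of the threshold. The summit lay 289 bp before the canonical start, in an exon of a non-canonical transcript, and within 100 bp of it the best site had 6 mismatches, so that the promoter site of 3 mismatches shown above was not counted for this region. Of 35116 RefSeq promoters of 300 bp, 1.12% held a site with at most 3 mismatches. The TGFA promoter held no KLF, AP-1 or TEAD match in these 300 bp, which 18.4%, 4.95% and 4.15% of promoters held. The p63-only region over it did hold a KLF match within 100 bp of its summit, not wholly inside these 300 bp.

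The other TGFA regions were intronic. At chr2:70524242-70525350 the p63 list held 40 reads (interval 28.6 to 54.5) and the CTR list 14 (interval 7.65 to 23.5), which did not overlap, and at chr2:70509671-70509855 they held 26 and 10, with intervals that overlapped between 17.0 and 18.4. All 6 regions had TGFA as the nearest protein-coding gene.

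**Figure D2:**
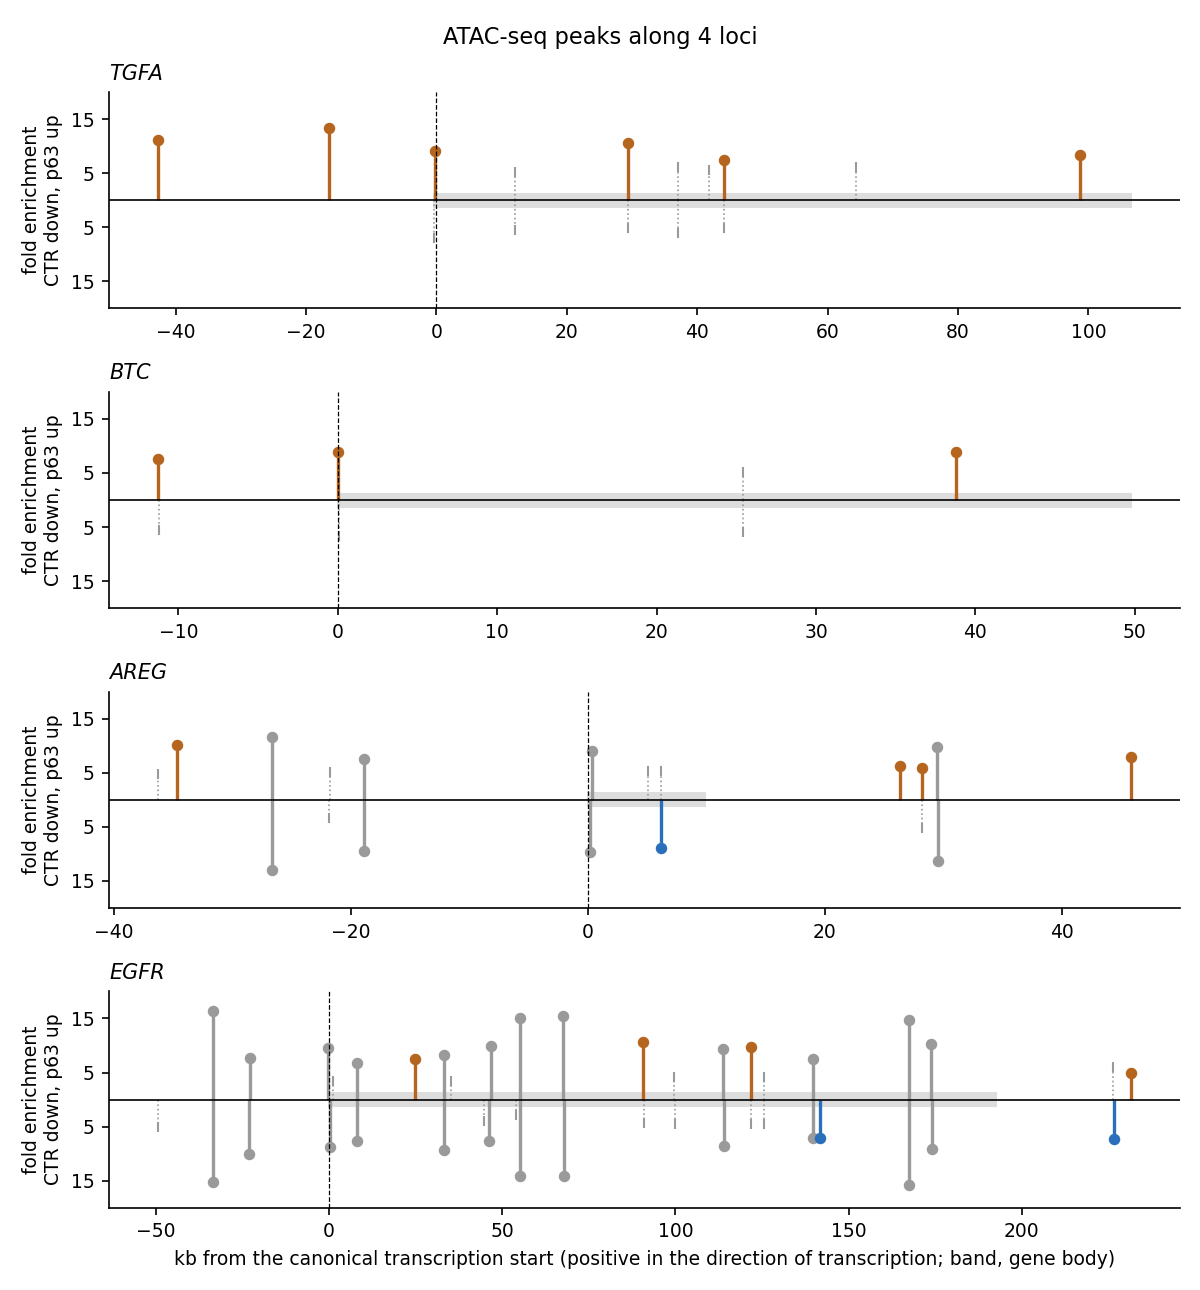
Fold enrichment of every peak (vertical axis, p63 list upwards and CTR list downwards) against the distance of its summit from the canonical start in kb, at TGFA, BTC, AREG and EGFR. Orange and blue mark p63-only and CTR-only regions, grey solid lines shared regions, grey dotted lines peaks below the threshold and the band the gene body; TGFA and BTC have no solid line below the axis, while EGFR has shared regions along its length.

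BTC (ENSG00000174808.12, chr4:74744759-74794523, minus strand), which encodes betacellulin, a ligand of EGFR, showed the same pattern at lower values. It had no CTR region and 3 p63 regions, and 37 protein-coding genes (0.185%), BTC and TGFA among them, had no CTR region and at least 3 p63 regions, again a comparison chosen after the values were seen. Its start region, chr4:74794047-74794886, in the non-coding part of exon 1, held 22 reads (interval 13.8 to 33.3) in the p63 list and 15 (interval 8.40 to 24.7) in the CTR list. The region before the gene, chr4:74805706-74805912, held 15 against 11. The intronic region at chr4:74755648-74755924 held 18 reads and was absent from the CTR list. Counting intervals overlapped at both pairs, so that the absence of BTC from the CTR regions rests on small differences around the threshold. The count of p63-only regions at BTC fell from 3 to 1 when all deposited peaks were compared. At TGFA it went from 6 to 5, but these were not all the same regions. The 3 over weaker CTR peaks dropped out and the 3 absent from the CTR list stayed. The rest were p63 peaks below the threshold, with a −log10 q of 7.40 and 9.97.

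AREG (ENSG00000109321.11, chr4:74445136-74455005, plus strand) encodes amphiregulin, an autocrine growth factor of keratinocytes, and EREG (ENSG00000124882.4, chr4:74365145-74388749, plus strand) encodes epiregulin. They are neighbours on chromosome 4 and share regions between them. AREG had 5 CTR and 8 p63 regions, and EREG had 7 and 6. Their start regions were open in both lists, with 33 and 37 reads at AREG and 72 and 86 at EREG.

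The p63-only regions of AREG lay outside the gene. Of 4, 3 were absent from the CTR list. The strongest, chr4:74410307-74410663, lay between EREG and AREG, belonged to both by the window, and had a fold enrichment of 10.2 and 29 reads. It held no p63 site, the best having 5 mismatches. The other regions absent from the CTR list, chr4:74471319-74471565 and chr4:74490812-74491091, held 24 and 16 reads, and the second of these carried the AREG site shown above. The fourth, chr4:74473243-74473601, held 22 reads against 15. In the other direction, an intronic AREG region, chr4:74451166-74451575, was CTR-only with 21 reads against 14. EREG had an intronic region, chr4:74370843-74371090, that was absent from the p63 list, with 34 reads over a local background of 7.09, and a CTR-only region at chr4:74394869-74395161 with 21 reads against 16. A shared region between the genes, chr4:74426144-74426375, held 25 reads in CTR and 15 in p63 and dropped by 35.4 percentile points in rank, more than any other shared region here. Of all shared regions, 2.78% dropped as far.

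HBEGF (ENSG00000113070.8, chr5:140332843-140346603, minus strand) encodes the heparin-binding EGF-like growth factor, which is released at wounds. It had 8 CTR and 10 p63 regions, of which 7 were shared, and its start held 62 reads in both lists. None of its list-only regions was absent from the other list. The p63-only region at chr5:140366705-140367307, in an intron of SLC4A9, held 46 reads (interval 33.7 to 61.4) against 16 (interval 9.15 to 26.0), had a −log10 q of 34.3 and a best site of 4 mismatches. The other 2 held 20 reads against 17 and 23 against 14, and the CTR-only region at chr5:140324794-140325051 held 29 against 28, a difference of 1 read.

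EPGN (ENSG00000182585.10, chr4:74308470-74316789, plus strand), which encodes epigen, was the only member without a list-only region, but it also had few regions. It had 3 regions in each list, all shared, and none at its start. The nearest lay 12219 bp (CTR) and 12261 bp (p63) from the start, with 27 and 28 reads. The others lay in introns of MTHFD2L, which has a start nearer to them than that of EPGN.

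NRG1 (ENSG00000157168.22, chr8:31639222-32855666, plus strand), which encodes the neuregulins that bind ERBB3, had the longest window and the most regions, 25 (CTR) and 30 (p63), of which 22 in each were shared. The region at its canonical start held 52 reads (interval 38.8 to 68.2) in the CTR list and 66 (interval 51.0 to 84.0) in the p63 list. Its 8 p63-only regions were all intronic, and 6 of them were absent from the CTR list. At least as many p63-only regions were found at 0.384% of protein-coding genes and at least as many absent ones at 0.14%. These shares make no allowance for the length of the window, which is 1270 kb here. The strongest, chr8:32510475-32510826, had a fold enrichment of 15.3, the highest of any list-only region at these genes, with 38 reads. The others absent from the CTR list held 33, 35, 22, 17 and 15 reads. The last of these, chr8:32562367-32562752, was at the lowest count of the list but had a p63 site of 2 mismatches. The remaining p63-only regions held 22 reads against 20 and 21 against 13. Of 3 CTR-only regions, also intronic, chr8:32554777-32554962 stood out with 30 reads against 12 and a −log10 q of 26.3, chr8:32264791-32265092 was absent from the p63 list with 15 reads, and the third held 20 against 15.

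**Figure D3:**
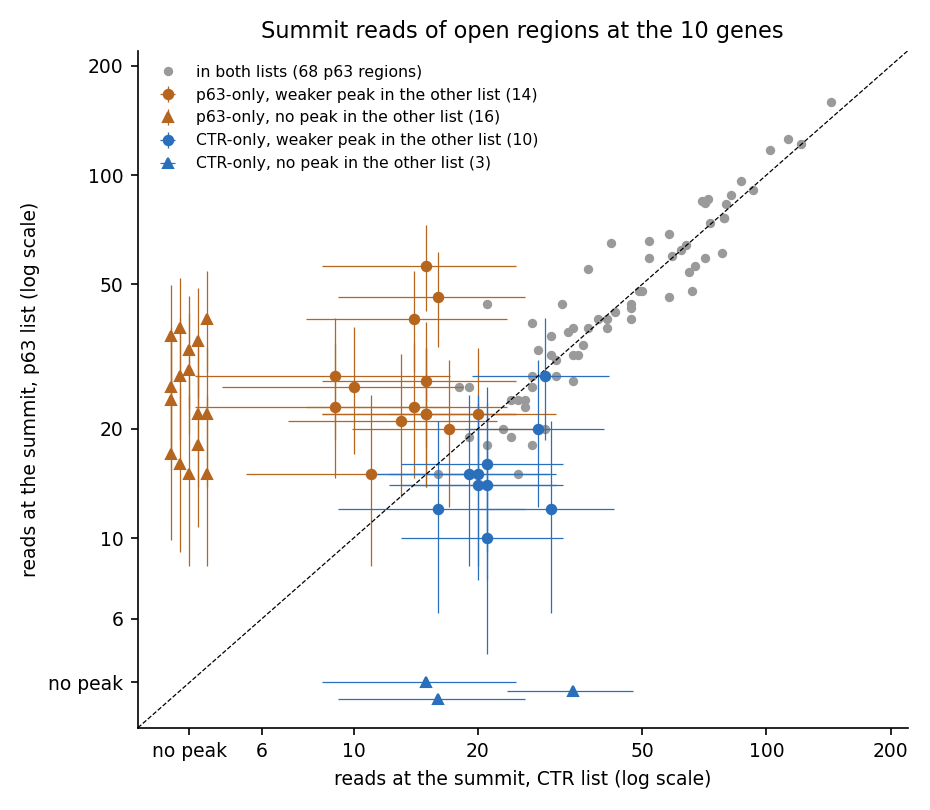
Reads at the summit in the CTR list (horizontal axis) and the p63 list (vertical axis), both on a log scale, for the regions of the 10 genes at the threshold, with exact Poisson 95% intervals for list-only regions. Triangles beside the axes are regions absent from the other list, and the dashed line marks equal reads. Shared regions lie along the line, and the p63-only pairs farthest above it hold 56 against 15, 28 against 9 and 46 against 16 reads.

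Read counts separated few of the list-only pairs. Of the 14 p63-only regions that overlapped a weaker CTR peak, 4 (28.6%) had more reads than that peak with intervals that did not overlap, against 15.3% of all such p63-only regions. These were the ones at TGFA, EGFR, ERBB2 and HBEGF described above. Of the 10 CTR-only regions over a weaker p63 peak, 0 did, against 1.54% of all. Of the 68 shared p63 regions, 0 had more and 0 had fewer reads than the CTR region they overlapped, against 2.33% and 0.357% of all.

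The shared regions did not move together in rank. Each region was given its percentile by −log10 q within its own list, and the CTR percentile was subtracted from the p63 percentile. The median difference over the 68 shared regions was −0.85 points, with quartiles of −8.52 and 3.24, and 33 regions were higher and 35 lower in the p63 list. Over all 47412 shared regions the median was 0.214, with quartiles of −9.18 and 9.58. HBEGF had 6 of 7 shared regions lower, with a median of −5.27, but most of these 7 lay nearest to a start of PFDN1 or SLC4A9. Of those nearest to HBEGF, the region at its start moved by −5.38 points and chr5:140322781-140323321 by 1.48. At NRG1 the median was 0.274. The widest single move lay at NRG1, chr8:32193946-32194728, which held 21 reads in CTR and 44 in p63 and rose by 47.2 points. Of all shared regions, 1.62% rose as far.

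**Figure D4:**
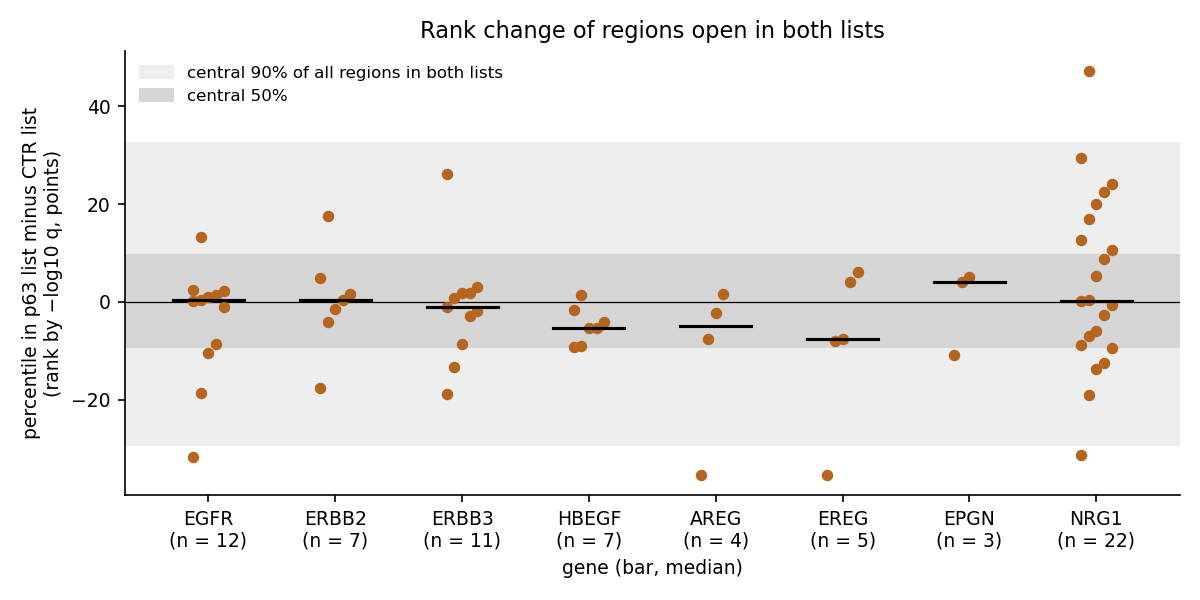
Percentile in the p63 list minus percentile in the CTR list, in points (vertical axis), for each shared region of the 8 genes that had any, with the median as a bar and the central 50% and 90% of all shared regions as bands. The points spread on both sides of 0 at most genes, with the widest spread at NRG1. In the HBEGF window 6 of 7 lie below 0, most of them nearest to other genes. A region between AREG and EREG is drawn at both.

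The p63 site was found in the p63-only regions at about its share over the whole list. It was present in 4 of 30 (13.3%, interval 5.31 to 29.7%), against 11.4% of all p63-only regions, and in 3 of the 16 that were absent from the CTR list (18.8%), against 18.8%. These 4 were the regions at TGFA, AREG, EGFR and NRG1. In the shared p63 regions it was present in 2 of 68 (2.94%), against 1.39%, one at ERBB3 and one at NRG1, and in the CTR-only regions in 0 of 13, with a Wilson upper bound of 22.8%. AP-1 sites (TGACTCA or TGAGTCA, a motif common in fibroblast enhancers) were in 8 of 30 p63-only regions (26.7%, against 22.0% of all) and in 5 of 13 CTR-only regions (38.5%, against 26.1%). KLF matches (GGGCGGGGC, GGGCGTGGC, GGGTGGGGC or GGGTGTGGC, on either strand) were in 3 of 30 p63-only regions (against 4.07% of all) and 0 of 13 CTR-only regions (against 3.19%). TEAD matches (ACATTCCA, ACATTCCT, GCATTCCA or GCATTCCT, on either strand) were in 4 of 30 (13.3%, against 7.90%) and 1 of 13 (7.69%, against 11.0%). CTCF matches were in 1 of 30 (3.33%, against 6.94%) and 2 of 13 (15.4%, against 12.8%). A match of letters is a description of the sequence and shows no binding.

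By position, 7 of the 30 p63-only regions (23.3%) lay within 3 kb of an annotated start of any gene, 15 lay elsewhere in a gene and 8 between genes, against 26.0% at starts over all p63-only regions. Of the 13 CTR-only regions, 4 lay at starts (30.8%, against 24.5%). Among shared regions the share at starts was 39.7% in the p63 list and 40.6% in the CTR list, so that at these genes too the list-only regions were more often away from starts than shared regions, with intervals that overlapped.

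The other genes of the pathway were counted in the same way. They were the remaining receptor and ligands, the proteases that release the ligands, and adaptors, kinases and feedback inhibitors downstream of the receptors, 30 genes in all. At least 1 p63-only region was found at 22 of them, against 58.2% of protein-coding genes, and at least 1 CTR-only region at 13, against 41.9%. The medians per gene were 1 and 0, which equalled those of all protein-coding genes. The 10 genes described above had medians of 3 and 1.5. More p63-only than CTR-only regions were found at 17 (against 42.0% of protein-coding genes), fewer at 5 (against 19.0%) and as many at 8. Over these 30 genes, 40 of 203 p63 regions were p63-only and 19 absent from the CTR list, against 23.9% and 12.0% of all p63 regions. In the other direction 19 of 181 CTR regions were CTR-only and 4 absent from the p63 list, against 16.5% and 3.29% of all CTR regions. Among the ligands, NRG2 had 5 CTR and 10 p63 regions, 5 of them p63-only, NRG4 had 3 and 6, with 3 p63-only, EGF had 3 and 4, with 1 p63-only, and NRG3 had no peak in its window. The receptor ERBB4 had 11 CTR regions, 3 of them CTR-only, and 9 p63 regions, 1 of them p63-only, with 1 in each list absent from the other. Of the proteases, ADAM17, which releases TGFA, AREG and HBEGF, had 1 list-only region in each direction and ADAM10 had 1 p63-only region, each absent from the other list. The feedback inhibitor ERRFI1, which binds the EGFR kinase, had 2 CTR-only regions, 1 of them absent from the p63 list, and no p63-only region, and CBL, a ubiquitin ligase that marks EGFR for degradation, also had 1 CTR region absent from the p63 list. Regions absent from the CTR list were further found at RHBDF2, a partner of ADAM17, at the adaptors SHC1 and GRB2 and at HRAS, with 2 each. SOS1, MAP2K2 and PIK3CA had 1 each. Such regions were common, since 37.1% of protein-coding genes had at least 1 and 11.9% at least 2. Of the 30 genes, 14 had at least 1. A region absent from the p63 list was found at 4 of the 30, against 11.4% of protein-coding genes.

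The threshold separated regions of like −log10 q, whereas the peaks on either side of the window edge were unlike in strength. The farthest summits counted lay 49.33 kb (CTR) and 49.95 kb (p63) from a start, both at EGFR, and the nearest left out 50.81 and 50.76 kb away, both at ERBB2. In the CTR list the farthest peak counted had a −log10 q of 5.19 and the nearest left out 27.8. In the p63 list these values were 13.1 and 30.9, so the peaks left out were the stronger ones. The regions just above the threshold had a −log10 q of 10.28 (CTR) and 10.36 (p63), both at NRG1, and those just below it 9.776 and 9.969, both at TGFA.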

How the data were processed

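ATAC-seq reads of BJ fibroblasts (4 samples, 2 per group) were mapped by the authors with Bowtie2 2.3.4.3 to hg38, and peaks were called with MACS2, whose version was not given in the sources used here. The authors deposited 1 peak list per group. Each deposited peak had a fold enrichment, a −log10 p and −log10 q, an integer score derived from q, and the offset of its summit. The fold enrichment was taken as the ratio of pileup to local background at the summit, with 1 added to both. It is thus lower than the plain ratio of the reads and background given here. Duplicate removal, the transposase shift and excluded regions were not stated, and duplicates or a missing shift would change reads and summit positions. Peak names carried an alignment name built from 2 inputs, and whether these were the replicates was not stated.

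Peaks on chromosomes 1 to 22, X and Y were kept (2558 CTR and 2808 p63 peaks lay on other sequences). Reads and local background at each summit were solved from fold enrichment and p under a Poisson model, within 0.002 of the deposited −log10 p for all but 16 peaks per list, none of them at these genes. Genes came from GENCODE release 44, sequences from the hg38 reference with pysam 0.24.0, and promoters (250 bases before to 50 after the start, GRCh38.p14) from RefSeq, where all 10 genes were found. Coordinates are 1-based. Overlaps were computed in Python 3.11.15 and checked with bedtools 2.31.1 on simulated data. No p-value was computed. The genes, gene lists, motifs and alternatives were chosen with earlier results of these data known. The genes named were the 10 members, with their start, strongest and list-only regions, and the other pathway genes with an absent region, except for an item that is not reported here. NRG3 was named after its values were seen.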

Additional observations from a re-analysis of the deposited data

How the results depend on the processing

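Of 52 alternatives run, 46 gave a like value. With a −log10 q of 20 or more, 15 p63-only and 5 CTR-only regions remained at these genes, 7 p63 regions were absent from the CTR list, and the shared share of CTR regions was 90.7%. These are smaller sets by construction. The share of p63-only regions with a p63 site was 3.33% with at most 2 mismatches and 3.33% with 50 bp on either side of the summit, since 1 region kept its site in each case. The p63-only regions at these genes outnumbered the CTR-only regions in every alternative run for both. They came nearest to each other, at 23 and 17, when equal numbers of top-ranked peaks were taken from both lists. The shares over all regions were not recomputed under the alternatives, so the comparison with them was not checked in this way. At TGFA, CTR regions stayed at 0 and p63 regions numbered 3 with a −log10 q of 20 or more, and at BTC both were at 0 there. With a window of 100 kb TGFA had 2 CTR and 9 p63 regions and BTC 1 and 7. These counts per gene were added after the data were seen. No paired analysis was possible because each group had 1 list, and for the same reason no replicate could be left out. Depth limits the comparison at weak summits, where a difference of a few reads moves a region across the threshold.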
